A study of Mus musculus with 2 samples.

Results

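The MYB family of transcription factors and the coactivators CBP and p300 were examined as 5 genes, Myb, Mybl1, Mybl2, Crebbp and Ep300, matched by symbol to the Ensembl identifiers of 2 total RNA libraries. They are 5 of 21474 protein-coding genes in the deposited gene tables, which hold 69691 rows each. The libraries were made from granulocyte-monocyte progenitors (GMP), marrow cells that go on to form neutrophils and monocytes. The mouse source was male, of strain C57BL/6J and aged 5 to 6 weeks, untreated as far as the labels say. Each library was made from a pool of 100 cells, with spike-in RNAs added. The series holds 1 group, with replicate 1 at 40509954 expected counts and replicate 2 at 35675702. Nuclear protein-coding genes held 51.5% and 52.0% of these counts in replicates 1 and 2. Mitochondrial genes held 14.6% and 15.6%, and the genes Gm42418 and Gm26917 together 31.9% and 30.1%. The labels number the libraries as biological replicates 1 and 2, each with technical replicate number 1. They give both libraries 1 donor identifier but a sample identifier each, and whether separate animals were used is not stated in them. Every SD below is therefore a spread between 2 libraries that may differ for technical reasons alone, and no comparison between conditions was possible.

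MYB proteins bind DNA through tandem MYB repeats and activate transcription through a central domain, while a C-terminal region restrains them. Myb (c-MYB) sustains immature blood cells and its message falls as they mature, Mybl2 (B-MYB) acts in dividing cells with the MuvB complex on genes of mitosis, and Mybl1 (A-MYB) is best known from male germ cells and germinal centre B cells. Crebbp (CBP) and Ep300 (p300) are paralogous lysine acetyltransferases whose KIX domain binds the activation domain of c-MYB, a contact that blood progenitors depend on.

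The labelled cell type was checked against its defining markers. All 7 GMP markers, Mpo, Elane, Ctsg, Fcgr3, Cd34, Kit and Ms4a3, reached 1 TPM in both libraries (TPM, a level per length scaled to a fixed total over each table). That level was reached by 45.6% of all protein-coding genes. Mean levels were 6467 TPM for Mpo, 3062 for Elane, 1051 for Ctsg and 531 for Ms4a3. Fcgr3 was at 140, Cd34 at 109 and Kit at 62.7 TPM. The lymphoid markers Il7r, Cd3e, Ms4a1 and Cd79a had 0 counts in both libraries. The stem cell marker Ly6a and the stromal markers Col1a1, Cxcl12 and Lepr were also at 0 in both. Of the remaining marker lists, 1 of 5 stem cell, 1 of 5 erythroid, 1 of 4 megakaryocyte, 2 of 4 macrophage, 2 of 4 later neutrophil and 0 of 4 stroma and endothelium genes reached 1 TPM in both. The later neutrophil markers Ltf, Camp, Mmp8 and Retnlg summed to 41.6 TPM in replicate 1 and 4.32 TPM in replicate 2. Of these markers, Ltf, Camp and Retnlg were higher in replicate 1, while Mmp8 was higher in replicate 2, at 1.07 and 2.24 TPM. Their part in any difference between the libraries below was not tested.

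The MYB proteins are related through their DNA-binding repeats, and exon 5 is shown because it codes for the stretch most alike in all 3. Exons 3, 4 and 5 had the same lengths in Myb, Mybl1 and Mybl2, 72, 93 and 221 bases, and these 3 were the exons of equal length in all 3 genes. The sequences are those of GENCODE M21 transcripts on GRCm38, 5′ to 3′, and capitals mark the bases that are the same in all 3 genes.
Myb-203 exon 5: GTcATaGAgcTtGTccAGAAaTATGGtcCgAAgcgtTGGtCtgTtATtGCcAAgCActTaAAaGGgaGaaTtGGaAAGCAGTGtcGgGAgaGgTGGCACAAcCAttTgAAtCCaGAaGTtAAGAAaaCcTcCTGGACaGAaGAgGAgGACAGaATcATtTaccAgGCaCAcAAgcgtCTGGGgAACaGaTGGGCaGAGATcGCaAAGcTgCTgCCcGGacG
Mybl1-201 exon 5: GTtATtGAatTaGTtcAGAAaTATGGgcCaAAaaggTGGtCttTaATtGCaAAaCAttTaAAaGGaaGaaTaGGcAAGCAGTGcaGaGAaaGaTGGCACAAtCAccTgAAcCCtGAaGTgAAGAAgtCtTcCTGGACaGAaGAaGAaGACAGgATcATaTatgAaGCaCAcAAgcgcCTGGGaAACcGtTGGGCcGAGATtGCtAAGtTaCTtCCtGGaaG
Mybl2-201 exon 5: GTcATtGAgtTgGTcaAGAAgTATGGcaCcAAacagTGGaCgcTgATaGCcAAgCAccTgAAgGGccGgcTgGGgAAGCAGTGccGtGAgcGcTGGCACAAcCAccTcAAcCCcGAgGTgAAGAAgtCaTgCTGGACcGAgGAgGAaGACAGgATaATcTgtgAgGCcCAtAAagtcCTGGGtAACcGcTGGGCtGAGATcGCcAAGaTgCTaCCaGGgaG

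These exons lie at chr10:21152436-21152656 on the minus strand for Myb, chr1:9687561-9687781 on the minus strand for Mybl1 and chr2:163064280-163064500 on the plus strand for Mybl2. In all, 142 of 221 bases (64.3%) were the same in the 3 genes. The exon codes for residues 103 to 175 of Myb, of which 70 of 73 were identical in Mybl1 and 61 of 73 in Mybl2. Over whole proteins, translated from the same transcripts and aligned end to end, identity over aligned residues was 51.9% for Myb and Mybl1, 49.5% for Mybl1 and Mybl2 and 47.4% for Myb and Mybl2. The most alike 100 residues of Myb held 97 identical to Mybl1 (residues 77 to 176) and 84 identical to Mybl2 (residues 85 to 184). The least alike held 27 and 11, at residues 309 to 408 and 246 to 345. The most alike stretches of both pairs lay in the DNA-binding part, and the least alike lay after it.

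CBP and p300 are closer to each other than any MYB pair, with 68.5% identity over 2251 aligned residues. Both have 31 exons, of which 17 had equal lengths. The match was uneven: 13 of the 14 exons from exon 17 to exon 30, a span that holds the bromodomain and the acetyltransferase domain, were equal in length, against 4 of the first 16. Identity of the coded residues was 88.3% over exons 17 to 30, 57.2% over exons 1 to 16 and 65.6% in the last exon. Within exons 1 to 16, exon 5 had the highest identity, with 36 of 37 residues the same, and exon 9 followed with 37 of 39. Exon 9 codes for part of the KIX domain, the surface that c-MYB binds, and is shown for that reason, with capitals for bases that are the same in both genes.
Crebbp-201 exon 9: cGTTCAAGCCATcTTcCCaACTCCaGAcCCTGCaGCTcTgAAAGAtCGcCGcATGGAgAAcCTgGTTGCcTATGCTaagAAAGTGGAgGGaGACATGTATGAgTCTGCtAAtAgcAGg
Ep300-201 exon 9: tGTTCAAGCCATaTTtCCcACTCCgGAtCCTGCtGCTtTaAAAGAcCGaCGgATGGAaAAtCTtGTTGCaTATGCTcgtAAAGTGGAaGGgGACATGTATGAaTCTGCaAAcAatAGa

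The 2 copies of this exon, at chr16:4125645-4125762 on the minus strand and chr15:81620000-81620117 on the plus strand, shared 91 of 118 bases (77.1%). The coded residues are 608 to 646 of CBP and 589 to 627 of p300.

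**Figure D1:**
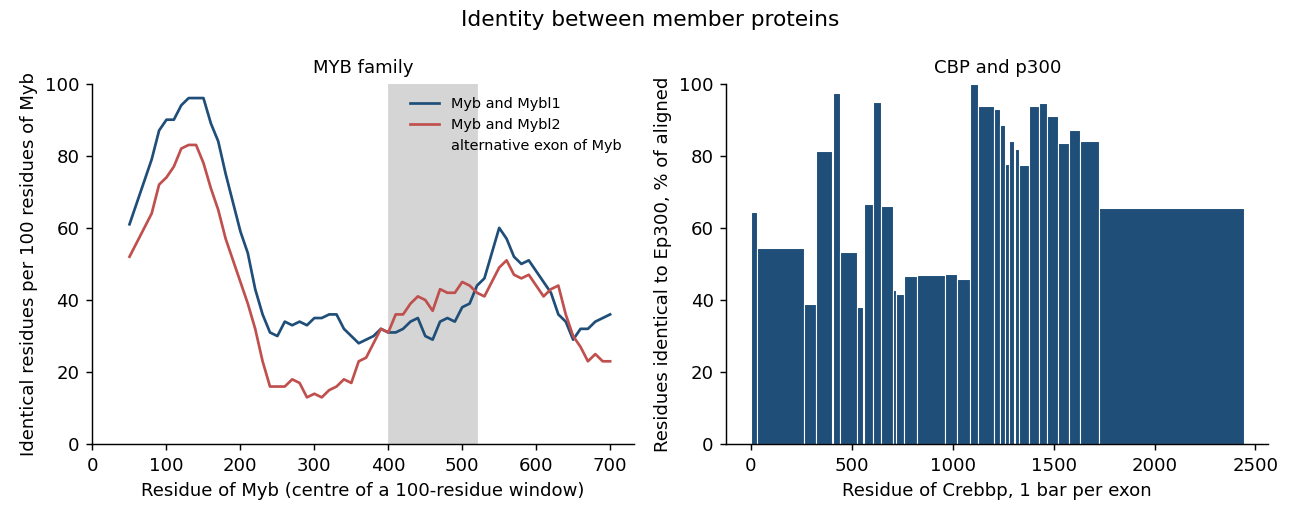
Left, identical residues in sliding windows of 100 residues along Myb, against Mybl1 and Mybl2, with the residues of Myb's alternative exon shaded. Right, percent of aligned residues identical to Ep300 in each exon of Crebbp. The MYB curves peak in the DNA-binding part, and the bars of exons 17 to 30, from residue 1086 to residue 1725, form the long high block of CBP.

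Myb was by far the most abundant of the 5 messages. Its gene, ENSMUSG00000019982.10, lies on chromosome 10, 21124935 to 21160984, minus strand. It stood at 274 TPM (replicate 1) and 269.6 TPM (replicate 2), from 24834 and 21786 expected counts, a mean of 272 ± 3.05 TPM (SD, n = 2). The libraries lay 1.02-fold apart. In RNA from pooled cells, more cells with a message and more message per cell cannot be told apart. This placed Myb 217th of the 21474 protein-coding genes, at percentile 99.0, and at percentile 97.8 among those of 1 TPM or more in both libraries. Its closest neighbours in level were Minos1 just above, at 273.5 TPM, and Sumo2 just below, at 270.5 TPM, genes of a mitochondrial inner membrane protein and of a ubiquitin-like modifier.

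Mybl2, the family member of dividing cells, came next within the family. Its gene, ENSMUSG00000017861.7, lies on chromosome 2, 163054687 to 163084688, plus strand. It was at 34.3 TPM (replicate 1) and 29.0 TPM (replicate 2), from 2080 and 2223 counts, a mean of 31.6 ± 3.78 TPM. The direction between libraries turned with the unit, since counts scaled to the library total (CPM, not divided by length) were 51.3 in replicate 1 and 62.3 in replicate 2. Mybl2 lay at percentile 88.9 of protein-coding genes, between Fam32a and Ctsc, the latter the gene of cathepsin C, which matures granule proteases.

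Mybl1 had the lowest level of the 5 members in both libraries. Its gene, ENSMUSG00000025912.12, lies on chromosome 1, 9667415 to 9700209, minus strand. It was at 3.37 TPM (replicate 1) and 4.58 TPM (replicate 2), a mean of 3.98 ± 0.856 TPM. These values rest on 89 and 190 counts, with exact 95% Poisson intervals of 71.5 to 109.5 and 164 to 219, which cover counting error only. Counts differed more than TPM did, with 2.20 CPM in replicate 1 and 5.33 CPM in replicate 2, a 2.42-fold difference against 1.36-fold by TPM. Mybl1 lay at percentile 60.2 of all protein-coding genes and at percentile 12.9 of those of 1 TPM or more in both libraries, next to Ppard and Tube1.

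Of the 2 coactivators, Ep300 had the higher level. Its gene, ENSMUSG00000055024.8, lies on chromosome 15, 81585351 to 81652077, plus strand. It was at 51.3 TPM (replicate 1) and 37.1 TPM (replicate 2), from 7221 and 6235 counts, a mean of 44.2 ± 10.1 TPM. By CPM the libraries nearly met, at 178 and 175. Ep300 lay at percentile 92.4, between Eif1b and Dapp1.

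Crebbp, on chromosome 16, 4081328 to 4213997, minus strand (ENSMUSG00000022521.9), was at 18.7 TPM (replicate 1) and 16.6 TPM (replicate 2). The counts were 5237 and 4294 and the mean 17.6 ± 1.48 TPM, at percentile 80.5. Its closest neighbours in level were Atr, the gene of a DNA damage kinase, and Ric8a. A short unclassified gene on the same strand in an intron of Crebbp, Gm37186, had 231 and 361 counts of its own.

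The order by TPM was Myb, Ep300, Mybl2, Crebbp, Mybl1 in both libraries. The ranges of all 4 neighbouring pairs were apart, though the lowest value of Ep300, 37.1 TPM, and the highest of Mybl2, 34.3 TPM, lay close. With 2 values against 2, the smallest p an exact two-sided permutation test can give is 0.333, so none was run. By CPM, which favours long messages, Crebbp lay above Mybl2 in both libraries. All 5 members were at 1 TPM or more in both libraries, a level that 45.6% of all protein-coding genes reached.

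Within the family, Myb held 87.9% of the summed TPM in replicate 1 and 88.9% in replicate 2. Mybl2 held 11.01% and 9.56%, and Mybl1 1.08% and 1.51%. Myb exceeded Mybl2 7.98-fold and 9.31-fold, and Mybl1 81.3-fold and 58.9-fold, in replicates 1 and 2. The order within the family was the same in both libraries and by TPM, CPM and complete coding transcripts.

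Between the coactivators the balance depended on what was counted. Ep300 exceeded Crebbp 2.75-fold and 2.24-fold by TPM in replicates 1 and 2. By CPM the ratio was 1.38 and 1.45. The sum over transcripts with a complete coding sequence, which is per length but leaves out short fragments, gave 1.497 and 1.58. Ep300 was higher in both libraries by each measure.

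**Figure D2:**
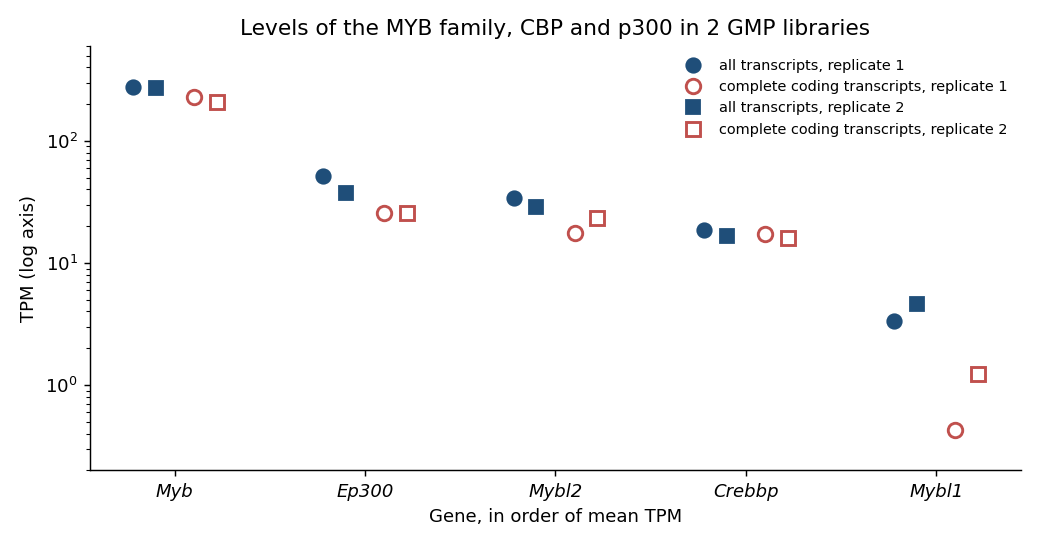
TPM of each gene on a log axis, with circles for replicate 1 and squares for replicate 2. Filled points sum all transcripts of a gene and open points only transcripts with a complete coding sequence. Myb stands well above the others on either sum, and Ep300, Mybl2 and Mybl1 drop when short transcripts are left out.

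By gene-level TPM the libraries differed little. None of the 5 members was over 2-fold apart on the log2(TPM + 1) scale, which understates ratios of low genes. Among protein-coding genes of 1 TPM or more on average 7.52% were over 2-fold apart, and among those of 10 TPM or more 3.13%, so 0 of 5 is near that background. The log2 ratios of replicate 2 to replicate 1 were -0.02 for Myb, 0.35 for Mybl1, -0.24 for Mybl2, -0.16 for Crebbp and -0.46 for Ep300. Over the 10278 genes of 1 TPM or more the median was 0.04 and the median size of the ratio 0.29. Ep300 and Mybl1 thus lay past the typical gene and Myb, Mybl2 and Crebbp inside it. With DESeq2's size factors, on counts, the ratio of Mybl2 was 0.19, of Ep300 -0.11 and of Mybl1 0.92. By edgeR, the biological coefficient of variation was 0.137 for Myb, 0.504 for Mybl1, 0.141 for Mybl2, 0.125 for Crebbp and 0.127 for Ep300. With 1 residual degree of freedom these values follow the trend over all rows of like counts, and no gene was tested.

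Transcript use separated the members further. The deposited tables hold 21 transcripts of the 5 genes, where GENCODE M21 lists 34. Of the 21, 7 have a complete coding sequence by the consensus coding sequence (CCDS) mark of M21. The others are retained introns, fragments of coding sequence or processed transcripts. IsoPct is the deposited percent of the gene's TPM that each transcript holds. No error within a library is given for it here.

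Myb divided its message over 3 transcripts. Myb-203 held 52.0% of the TPM in replicate 1 and 57.05% in replicate 2, Myb-201 31.4% and 20.2%, and Myb-202, a retained intron form, 16.6% and 22.7%. In TPM these were 142 and 154 for Myb-203, 86.1 and 54.6 for Myb-201 and 45.4 and 61.2 for Myb-202. Myb-203 was the highest in both libraries, while the order of the other 2 turned between them.

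What sets Myb-203 apart is an alternative exon of 357 bases, exon 10, at chr10:21144969-21145325 on the minus strand. It is in frame and adds 119 residues, 402 to 520, after the central activation domain, so that Myb-203 codes for 755 residues and Myb-201 for 636. Both are known c-MYB isoforms. The junctions are shown because they are the RNA that tells the form with the exon from those without it. Myb-201 and Myb-202 share the junction that leaves it out. Capitals mark bases of the alternative exon, and GENCODE M21 is the source.
Myb exon 9 into the alternative exon: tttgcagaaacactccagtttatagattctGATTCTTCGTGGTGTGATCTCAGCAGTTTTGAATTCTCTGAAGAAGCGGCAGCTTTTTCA
Myb alternative exon into the next exon: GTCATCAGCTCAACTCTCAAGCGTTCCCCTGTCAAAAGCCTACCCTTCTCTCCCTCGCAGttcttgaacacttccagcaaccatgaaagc
Myb exon 9 joined to the next exon, alternative exon left out: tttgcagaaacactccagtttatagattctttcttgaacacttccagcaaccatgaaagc

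Of the TPM on complete coding transcripts, the form with the exon held 62.3% in replicate 1 and 73.8% in replicate 2, a ratio of 1.65 and 2.82 to the form without it. By expected counts the shares were 67.3% and 77.8%. Myb-202 also lacks the exon, so over all 3 transcripts the form with it held 52.0% and 57.05% of TPM. The form with the exon led in both libraries, and by a wider margin in replicate 2. In M21 the 2 transcripts share 13 exons and differ also at their ends. Their last exons are of 1355 and 1014 bases in Myb-203 and Myb-201, and their first exons of 210 and 289 bases. The deposited Myb-201 was shorter than in M21, at 2995 against 3074 bases, so the ends that were counted can differ from these. The deposited lengths differ by 697 bases, so reads of the longer 3′ end count toward the form with the exon as well. The share is not a count of reads over the exon alone.

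The alternative exon has a counterpart in A-MYB. It aligned with exon 10 of Mybl1, 369 bases long, over 103 residues of which 42 were identical. The annotated gene Gm26577, antisense to Myb, shares 232 bases of this exon and 491 bases of Myb-203 in all. Gm26577 had 8 counts in replicate 1 and 0 in replicate 2, where the limit set by 0 counts is 3 counts, or 0.0841 CPM. The sources do not state whether counting used strand, and the part of antisense reads in the Myb count was not tested.

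**Figure D3:**
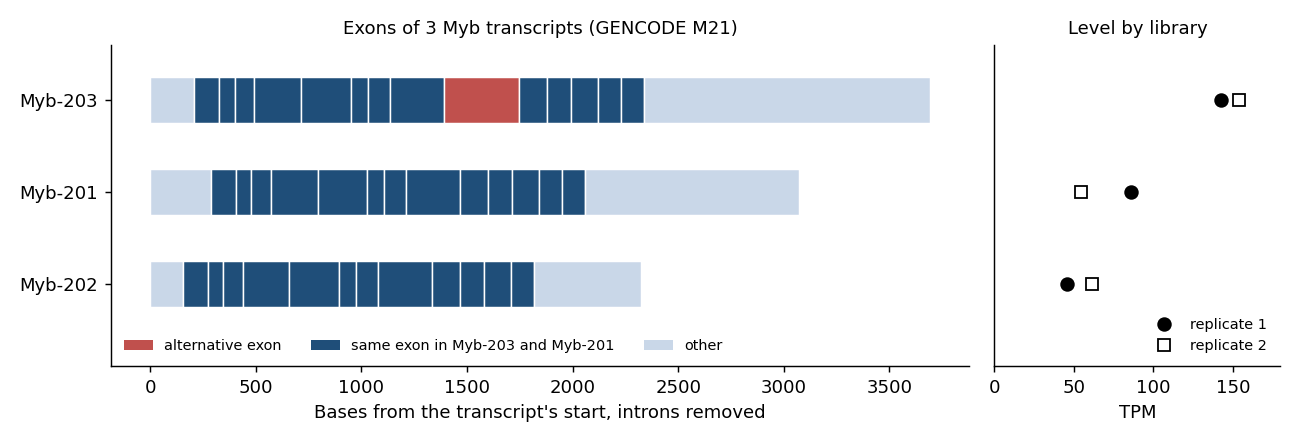
Left, exons of 3 Myb transcripts drawn end to end in bases from the transcript's start, with the alternative exon in red and exons common to Myb-203 and Myb-201 in dark blue. Right, the TPM of each transcript in each library. Myb-203, with the exon, is highest in both, at 142 and 154 TPM.

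For Mybl2 the complete transcript Mybl2-201 held 51.2% of TPM in replicate 1 and 81.3% in replicate 2. The remainder lay on short transcripts: Mybl2-204 with 25.8% and 18.7%, Mybl2-205 with 13.2% and 0%, and Mybl2-202 with 9.76% and 0%. In counts Mybl2-201 held 86.7% and 97.0%, and its TPM was 17.6 and 23.55, lower in replicate 1 where the gene's TPM was higher. The gene-level direction for Mybl2 therefore rests on the short transcripts.

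Ep300 had the same structure of result. Ep300-201, the complete transcript, held 50.4% of TPM in replicate 1 and 68.7% in replicate 2, and 90.3% and 91.9% of counts. A fragment of 559 bases, Ep300-203, held 30.5% and 7.36%, from 183 and 28.8 counts. Retained introns followed, with Ep300-204 at 9.85% and 10.1%, Ep300-206 at 6.24% and 6.38% and Ep300-205 at 0.14% and 5.74%. The complete transcript was at 25.9 and 25.5 TPM, 1.02-fold apart, where the gene was 1.38-fold apart.

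Crebbp was almost wholly complete message over the 2 transcripts that the deposited tables hold for it. They hold 6 for Ep300 and 5 each for Mybl1 and Mybl2, so these shares are not over like sets. The part of the number of transcripts in the shares was not tested. Crebbp-201 held 92.5% of TPM in replicate 1 and 97.25% in replicate 2, and the retained intron Crebbp-202 held 7.5% and 2.75%. Its complete transcript was at 17.3 and 16.1 TPM.

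Mybl1 was the reverse. A retained intron form of 543 bases, Mybl1-203, held 87.4% of TPM in replicate 1 and 73.1% in replicate 2, though from only 33.15 and 33.9 counts. The complete transcript Mybl1-201 held 10.8% and 26.9%, from 51.7 and 156 counts. Complete coding transcripts of Mybl1 came to 0.43 and 1.24 TPM, a 2.88-fold difference. At the level of complete message Mybl1 was thus below 1 TPM in replicate 1.

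Across the members, 5 of 5 had the same leading transcript in both libraries, against a background of 69.1% of protein-coding genes with at least 2 transcripts and 1 TPM or more in both libraries. In 1 of 5, Mybl1, the leading transcript lacked a complete coding sequence by the CCDS mark in both libraries, against 17.3% of those genes. Genes with a leading transcript absent from M21 stayed in that total but were not counted as lacking one. In 2 of 5, Mybl2 and Ep300, some IsoPct changed by over 20 points, against 49.1%. With 5 genes, none of these counts is read as a result about the members. By counts, the leading transcript was complete in 5 of 5.

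**Figure D4:**
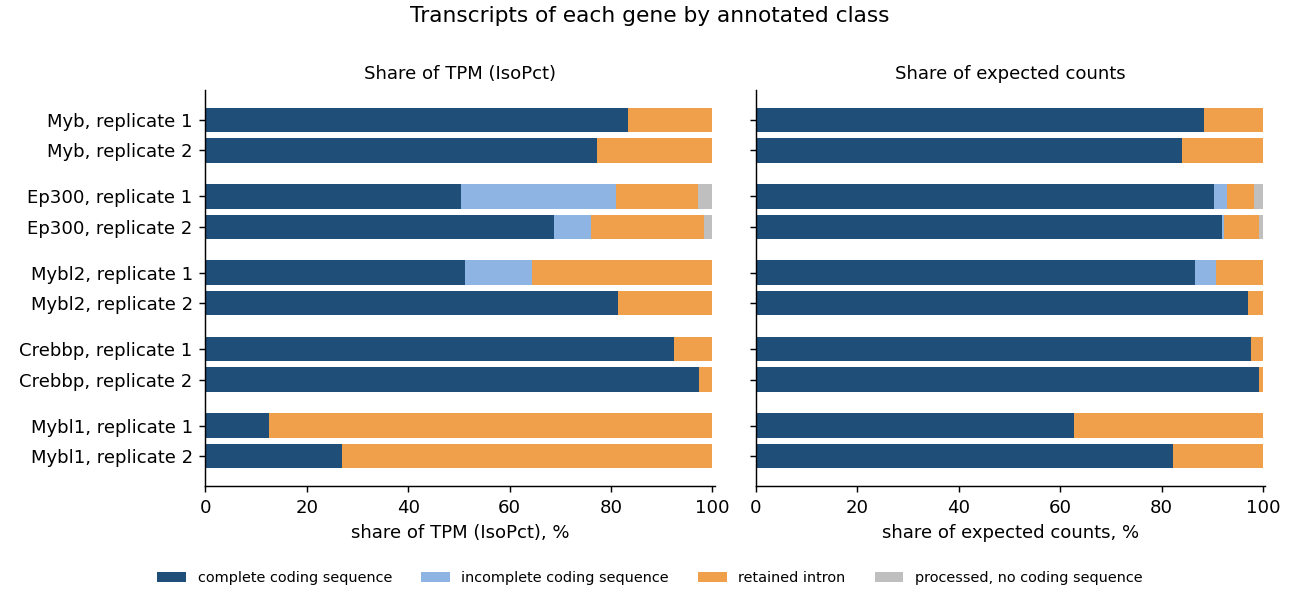
Share of each gene's TPM (left) and of its expected counts (right) on transcripts of each annotated class, 1 bar per gene and library. Complete coding transcripts hold most of the counts of every gene, while short retained introns and fragments hold a large part of the TPM of Mybl1, Mybl2 and Ep300.

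On complete coding transcripts alone the order was the same, but Mybl2, at 17.6 and 23.55 TPM, and Crebbp, at 17.3 and 16.1 TPM, nearly met in replicate 1. Myb was at 228.5 and 208 TPM on this sum. It exceeded Ep300 8.83-fold and 8.17-fold, against 5.34-fold and 7.27-fold by the gene's TPM.

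The start regions were compared in RefSeq's promoter windows (GRCm38.p6, 250 bases before to 50 after the start), which matched 4 of the 5 members, Mybl1 not among them. GGCGGGA, a form of the E2F motif, occurred in Myb and Mybl2 and not in Crebbp or Ep300, searched on both strands, and 11.3% of 32851 windows held it. The motif was chosen after the sequences had been seen. In both genes it lies just before RefSeq's start. For Myb that start is also the gene's start in M21, 21160984, but for Mybl2 the M21 gene starts downstream, at 163054687. The bases from 30 before the motif to the base before RefSeq's start are shown with the motif in capitals.
Myb promoter around the E2F motif: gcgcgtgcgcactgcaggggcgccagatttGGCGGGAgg
Mybl2 promoter around the E2F motif: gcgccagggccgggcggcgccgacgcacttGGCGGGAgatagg

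They lie at chr10:21160985-21161023 on the minus strand and chr2:163054592-163054634 on the plus strand. The MYB core AACNG, also on both strands, occurred in the windows of Myb, Mybl2 and Crebbp, and in 80.3% of all windows. TTTGAA, the core of the cell cycle element CHR, and TGACGT, the core of the cAMP element CRE, occurred in none of the 4, and in 17.9% and 7.51% of all windows. A match is a description of the letters and not a bound site.

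Genes around the members were described from 8 lists, by the number at 1 TPM or more in both libraries and the median of the mean TPM. Of all protein-coding genes, 45.6% were at 1 TPM or more in both libraries, the share to set beside the count of each list. The median of all protein-coding genes was 0.55 TPM, and of those at 1 TPM or more in both libraries 14.3 TPM.

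Genes of the MuvB and DREAM list were all present, 12 of 12 with a median of 20.8 TPM. The list is wider than the MuvB complex with which B-MYB acts. The highest were the E2F partner Tfdp1 at 123 ± 13.9 TPM (SD, n = 2), the histone-binding subunit Rbbp4 at 90.7 ± 19.4 TPM and E2f4 at 59.2 ± 4.08 TPM. The lowest was E2f5 at 2.06 ± 0.849 TPM. Mybl2 itself, at 31.6 TPM by gene-level TPM, lay above the median of this list. Its complete coding transcript alone, at 20.6 TPM, did not, though the levels of the list sum all transcripts.

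The mitotic genes that B-MYB and FOXM1 activate were likewise all present, 12 of 12 with a median of 18.35 TPM. Top2a, a DNA topoisomerase, was at 104 ± 1.85 TPM, Birc5 (survivin) at 53.2 ± 11.4 TPM, Aurkb, a mitotic kinase, at 44.4 ± 8.23 TPM, and the lowest, Cenpf of the kinetochore, at 8.11 ± 5.88 TPM. Of the 12, 10 were higher in replicate 1 by TPM, against 45.2% of all genes that reached 1 TPM in both libraries. By the same gene-level TPM Mybl2 was also higher in replicate 1, at 34.3 against 29.0 TPM, and so was Foxm1, at 26.2 against 19.1 TPM. Foxm1 was named after its values were seen, from the MuvB and DREAM list, of which 6 genes were higher in each library. By CPM 11 of the 12 targets were higher in replicate 1, against 41.0% of genes that reached 1 TPM in both libraries. Mybl2, by CPM, was instead higher in replicate 2, at 51.35 and 62.3 in replicates 1 and 2. Complete Mybl2 message alone was also higher in replicate 2, with 17.6 TPM in replicate 1 and 23.55 TPM in replicate 2. Whether these genes move with Mybl2 or Foxm1 was not tested.

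Of 12 known c-MYB targets in blood cells 11 passed, with a median of 86.0 TPM. The granule genes Mpo, Elane and Prtn3 led, at 6467 ± 191, 3062 ± 112 and 1447 ± 524 TPM, and were the 3 of the list above Myb itself. Cebpb was the lowest that passed, at 6.595 ± 1.28 TPM. The exception was Gata3, named after its values were seen, with 0 counts in replicate 1 and 22 in replicate 2. These targets include GMP markers, so their level repeats the check of the cell type.

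Germ cell genes of the A-MYB programme were nearly absent, with 1 of 10 at 1 TPM or more and a median of 0 TPM. Rfx2 was at 1.82 and 2.09 TPM in replicates 1 and 2. Piwil2 had 1 and 9 counts, and the other 8, Ddx4 and Sycp3 among them, had no count in either library, for which the upper limits are 0.0741 CPM (replicate 1) and 0.0841 CPM (replicate 2).

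Regulators and partners of the c-MYB protein were all present, 12 of 12 with a median of 22.6 TPM. Mybbp1a (MYB-binding protein 1a) was at 84.1 ± 0.0495 TPM (SD, n = 2) and the cyclophilin Ppid at 82.4 ± 28.0 TPM. The lowest was Fbxw7, the ubiquitin ligase subunit that marks c-MYB for degradation, at 1.74 and 3.47 TPM.

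Among partners of CBP and p300, 15 of 17 passed, with a median of 19.2 TPM. Trp53 was at 106 ± 3.03 TPM, Cited2, which binds a zinc finger domain of both coactivators, at 53.9 ± 10.5 TPM, and Kmt2a, whose protein shares the KIX domain with c-MYB, at 32.3 ± 4.23 TPM. Cited4 was the lowest that passed at 2.13 TPM in both libraries. Cited1 had 0 counts in both libraries, and Crem, named after its values were seen, was at 0.64 and 3.16 TPM.

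All 8 other lysine acetyltransferases were present, with a median of 20.1 TPM. Hat1, which acetylates new histone H4, was at 60.3 ± 5.28 TPM, Kat7 at 36.7 ± 0.785 TPM, Kat2a (GCN5) at 25.04 ± 1.36 TPM and the lowest, Kat6b, at 6.24 ± 0.339 TPM. By gene-level TPM, Ep300 at 44.2 TPM lay below Hat1 alone in this set, and Crebbp at 17.6 TPM below the median. Complete coding transcripts alone put Ep300 at 25.7 TPM, below Kat7 as well, though the levels of the set sum all transcripts.

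Other genes of proteins with MYB or SANT repeats passed in 11 of 12 cases, with a median of 19.2 TPM. The corepressor Ncor1 was at 153 ± 20.2 TPM, the chromatin remodeller subunit Smarcc1 at 37.5 ± 1.15 TPM, the splicing factor Cdc5l at 30.3 ± 5.12 TPM and the lowest that passed, Ttf1, at 9.305 ± 5.13 TPM. Mypop had 0 counts in both libraries. Myb, at 272 TPM, lay above every gene of this list.

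**Figure D5:**
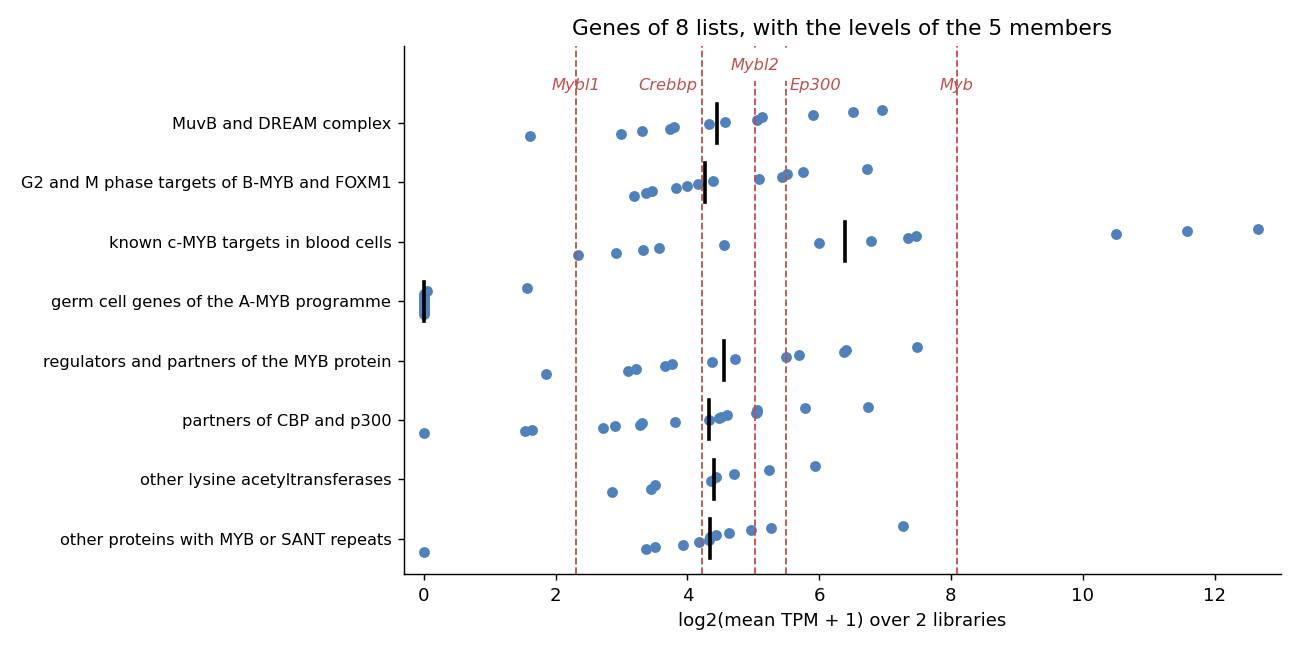
Mean TPM of each list gene as log2(mean TPM + 1), 1 row per list, with a black bar at the list's median and dashed lines at the 5 members. Of all the list genes, 3 c-MYB targets lie to the right of Myb, and the median of the germ cell list is at 0.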

How the data were processed

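Total RNA was measured in 2 libraries of 1 group. The authors deposited expected counts, estimates of reads that can be fractional, for genes and transcripts. The authors' TPM has 1 fixed total over every row, spike-ins included, and the deposited FPKM is per length and library size. IsoPct, a percent in the deposited transcript tables, is each transcript's share of its gene's TPM. The other deposited columns used were lengths and effective lengths. The build was mm10 and the annotation M4, as stated in each library's deposited text file. The aligner and quantifier were not given in the sources used here. The labels name no molecular identifiers.

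Symbols, classes, exons and coding ranges came from GENCODE M21 (GRCm38), by Ensembl identifier without version. Of the 21 member transcripts 16 had the same length in the deposited tables as in M21. Proteins were translated from M21 transcripts and aligned end to end (BLOSUM62) with Biopython 1.88, and promoter windows came from RefSeq (GRCm38.p6). CPM is an expected count scaled to the library total. Ranges are of 2 libraries, intervals exact Poisson (95%), and the limit for 0 counts is 3 counts. Replicate spread came from edgeR 4.0.16 (TMM factors, counts rounded to whole numbers, 10 counts in at least 1 library, intercept alone) in R 4.3.3, with DESeq2 1.42.0 as an alternative. The common edgeR spread was checked on simulated data in which every gene had the same spread. That check does not cover the values given per gene. Other steps used Python 3.11.15, numpy 2.4.6, pandas 2.3.3, scipy 1.17.1 and matplotlib 3.10.9. No test between groups was possible.

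The members and lists were chosen with earlier results of these data known. Named genes are the members, the 3 highest of each list, its lowest at 1 TPM or more in both libraries, its genes with 0 counts in both where these are 5 or fewer, each member's nearest protein-coding gene in level on either side, and every member transcript with an IsoPct of 5 or more in either library; some list genes are not reported here. Alternatives were other units, scalings, pseudocounts, filters and normalizations, complete coding transcripts alone, and each replicate left out.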

Additional observations from a re-analysis of the deposited data

How the results depend on the processing

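Levels moved with the unit, since each unit has its own scale. Deposited FPKM gave 198 for Myb, 2.91 for Mybl1, 23.1 for Mybl2, 12.9 for Crebbp and 32.2 for Ep300. CPM gave 612 for Myb, 56.8 for Mybl2, 125 for Crebbp and 176 for Ep300. TPM rescaled over nuclear protein-coding genes without Lars2 gave 595 for Myb, 8.68 for Mybl1, 69.3 for Mybl2, 38.6 for Crebbp and 96.9 for Ep300. Complete coding transcripts alone, an alternative chosen after seeing the data, gave 218 TPM for Myb, 0.835 for Mybl1, 20.6 for Mybl2 and 25.7 for Ep300. The log2 ratio of Mybl2 over Crebbp, 0.84 by TPM, turned to -1.14 by CPM, which is not divided by length, and was 0.29 on complete coding transcripts. By CPM the log2 ratios were 3.44 for Myb over Mybl2, 4.05 for Mybl2 over Mybl1, 0.50 for Ep300 over Crebbp, 1.79 for Myb over Ep300, 1.64 for Ep300 over Mybl2 and 5.19 for Crebbp over Mybl1. On complete coding transcripts they were 3.42 for Myb over Mybl2, 4.80 for Mybl2 over Mybl1, 0.62 for Ep300 over Crebbp, 3.09 for Myb over Ep300 and 4.52 for Crebbp over Mybl1. The 4 neighbouring pairs of the order were kept with ranges apart under FPKM, the rescaling, complete coding transcripts and without either replicate, and 3 of 4 were kept by CPM. The share of genes over 2-fold apart between libraries, 7.52% at 1 TPM or more, was 4.34% with no filter and 3.13% at 10 TPM or more. The mean share of the leading transcript moved with the denominator. By expected counts it was 62.5% for Myb-203, 27.5% for Mybl1-203, 91.8% for Mybl2-201, 98.4% for Crebbp-201 and 91.1% for Ep300-201. Among protein-coding transcripts alone it was 68.1% for Myb-203, 89.7% for Mybl2-201, 100% for Crebbp-201 and 76.3% for Ep300-201. At 5 TPM or more in both libraries, 0 germ cell genes passed, against 1. Leaving out either replicate kept every level, ratio and leading share within 1 SD of its mean, which holds by construction with 2 libraries. DESeq2 gave a spread of 0.0652 for Myb, against 0.137 from edgeR. No paired analysis was possible because the series holds 1 group.

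Depth limits Mybl1 most, at 89 and 190 counts. Shares of TPM on short transcripts rest on few counts, since each count weighs more per length.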
